A study of Mus musculus with 6 samples.

Results

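The D cyclins (Ccnd1, Ccnd2, Ccnd3), their kinases (Cdk4, Cdk6), the CDK inhibitors of the Cip/Kip class (Cdkn1a, Cdkn1b) and the Myc family (Myc, Mycn, Mycl) were examined in the mesenchyme and the urothelium of the embryonic mouse bladder. Members were taken by gene symbol from the array platform's annotation, which gave 30 probe sets for these 10 genes, out of 34945 probe sets and 18193 genes with an unambiguous symbol. The material was bladder of wild-type FVB/N embryos at embryonic day 13 (Theiler stage 21), of unknown sex. Bladders were dissected, kept for 20 minutes in 20 µM EDTA, a chelator that loosens epithelium from the underlying tissue, and divided with a needle into the mesenchyme (arrays 1, 2 and 4) and the epithelium, labelled urothelium (arrays 5, 7 and 8), with no pooling of samples. RNA went through 2 rounds of amplification before hybridisation to Affymetrix MOE430 arrays. Separate embryos are not stated in the labels, so p-values reflect only how these arrays vary, which may be technical.

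Cells enter S phase from G1 when D cyclins bind CDK4 or CDK6 and the complexes phosphorylate the retinoblastoma protein, which releases E2F transcription factors. p21 (Cdkn1a) and p27 (Cdkn1b) bind cyclin-CDK complexes and restrain the later kinase CDK2. The Myc proteins pair with Max at E-box sequences and raise the transcription of genes for growth and ribosome production, Cdk4 and Ccnd2 among their known targets. In bulk tissue, fewer cells of a type and less RNA per cell cannot be told apart.

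The compartments matched their labels: all 12 epithelial markers were higher in urothelium and all 12 mesenchymal markers were higher in mesenchyme. Markers of other cell types were mostly higher in mesenchyme. Of 9 endothelial markers 9 were higher in mesenchyme, with summed signals of 23411 to 27006 against 863 to 929 in urothelium. Of 9 macrophage markers 6 were higher (6441 to 10711 against 807 to 1195), and of 8 smooth muscle markers 6 were (70852 to 98597 against 3488 to 4629). Red cell markers were higher in mesenchyme for 4 of 7, with summed signals that overlapped (70425 to 89023 against 57112 to 103859). Of 7 measured neural crest, glial and neuronal markers 2 were higher in each compartment, with sums of 2503 to 7708 in mesenchyme and 25194 to 30795 in urothelium. Their median log2 difference, urothelium minus mesenchyme, was −1.12, so the sums and the median went opposite ways. Both markers higher in urothelium, Erbb3 and Ret, encode receptor tyrosine kinases. Of 7 mesothelial markers 4 were higher in mesenchyme and 1 in urothelium (5590.3 to 15927 against 5708 to 13216). No detection calls were used, so no cell type is called present in or absent from a compartment. The part of these cell types in the differences below was not tested. Mesenchyme 1 and urothelium 5 stood apart in the beta-actin control probe sets, whose 3' signal exceeded the 5' signal 8.40- and 8.60-fold there and 2.29- to 4.89-fold on the other arrays. This ratio grows as the labelled copies become shorter.

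Mycl and Cdkn1a were higher in urothelium, each past the test on its brightest probe set only, of 3 for Mycl and 2 for Cdkn1a. Ccnd1 was lower in urothelium on every probe set and passed on 2 of 3, but not on the brightest, which stands for the gene. The remaining 7 members did not pass. In the fit of 1 probe set per gene (the one with the highest mean log2 signal), 2 of 10 members passed towards urothelium (limma, adjusted p under 0.05 over all genes), where 5.80% of all genes did so. Towards mesenchyme 0 of 10 passed, against 8.91% of all genes, and 1, Ccnd1, had an unadjusted p under 0.05. The arrays of the compartments did not overlap for 2 members higher in urothelium (12.0% of all genes) and for 1 higher in mesenchyme (18.1%), which was Cdk4. The median difference of the 10 members was −0.40, and that of all genes −0.11. A positive difference means higher in urothelium; all differences are in log2(signal + 45) units, so those of dim genes come out too small. Centring the arrays on their medians moved the median of all genes to 0.08.

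**Figure D1:**
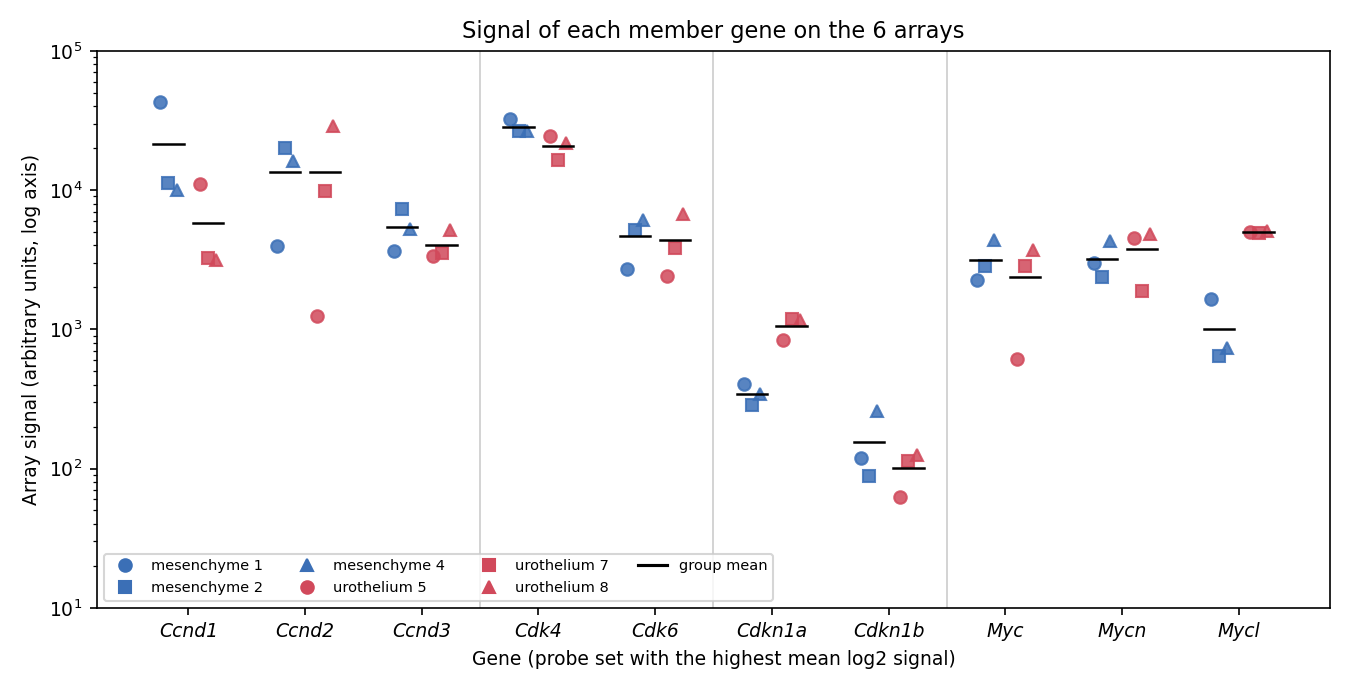
Array signal (arbitrary units, log axis) of the probe set used for each member gene; points are arrays (blue mesenchyme, red urothelium, shapes by array) and black lines are group means. The urothelium arrays of Mycl lie between 4893 and 5039, above all mesenchyme arrays, while those of Ccnd2 span 1242 to 28977.

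**Figure D2:**
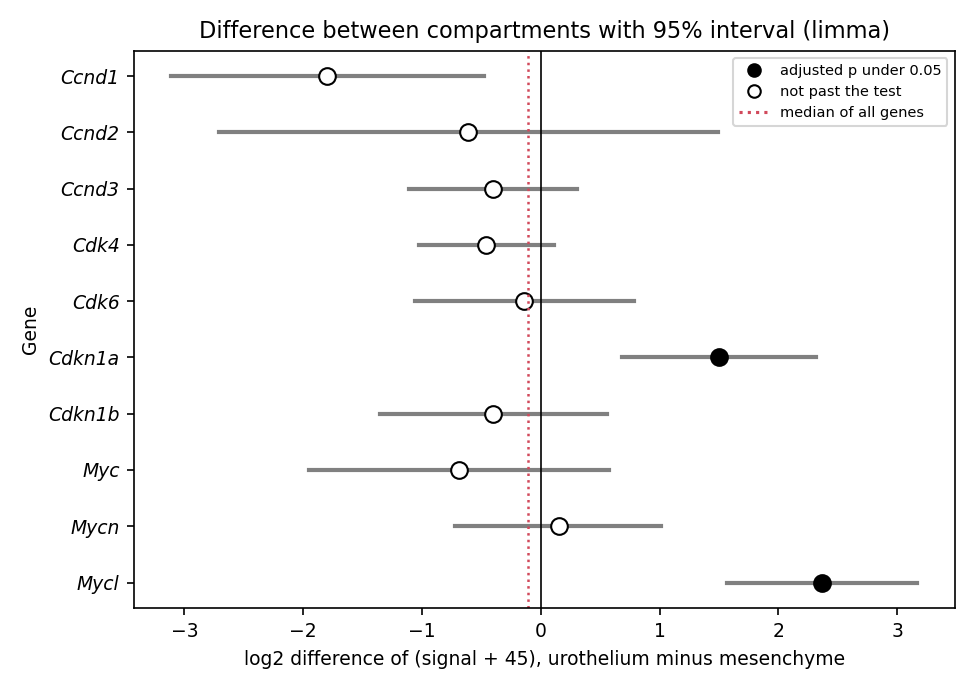
Log2 difference between urothelium and mesenchyme for each member gene with its 95% interval from limma; filled points passed at adjusted p under 0.05 and the dotted line is the median of all genes. Only the intervals of Ccnd1, Cdkn1a and Mycl leave out 0, and Ccnd1 did not pass after adjustment.

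Among the D cyclins, Ccnd1 encodes cyclin D1, the member most widely induced by growth factors. Its brightest probe set had signals of 42610.3, 11284 and 9929 on mesenchyme 1, 2 and 4, and of 10971, 3245 and 3129.8 on urothelium 5, 7 and 8. The compartments overlapped, because urothelium 5 lay above mesenchyme 4. The log2 difference was −1.80 ± 0.59 (SE), 3.47-fold, with a 95% interval from −3.11 to −0.48 and an adjusted p of 0.0721. Mesenchyme 1 and urothelium 5, the arrays with the high beta-actin ratio, were each the highest of their compartment. Without both, the difference was −1.72 and passed (adjusted p = 0.00131), as it did without urothelium 5 (−2.39, adjusted p = 0.0233) or mesenchyme 4 (−2.18, adjusted p = 0.0491). Without mesenchyme 1 it was −1.13 and did not pass (adjusted p = 0.197). Nor did it pass without mesenchyme 2 (−2.08, adjusted p = 0.0655), urothelium 7 (−1.51, adjusted p = 0.254) or urothelium 8 (−1.49, adjusted p = 0.211). It also passed with the beta-actin ratio as a covariate (−1.89), with array weights (−1.63), in the mean of its probe sets (−1.85) and with the probe set of largest variance (−2.20).

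The other Ccnd1 probe sets did not overlap between compartments. One had 5489, 4055 and 4135 in mesenchyme and 1652, 1107 and 1859 in urothelium, a difference of −1.56 ± 0.30 that passed (adjusted p = 0.00916 over 45037 probe sets). The dimmest had 315, 707 and 557 in mesenchyme and 46.5, 24.4 and 217 in urothelium, a difference of −2.20 ± 0.59 (adjusted p = 0.0470). Without mesenchyme 1 and urothelium 5 the former still passed (−1.48, adjusted p = 0.0361) and the latter did not (−2.32, adjusted p = 0.101). In that fit of all probe sets, 2 of the 30 passed towards mesenchyme, both of Ccnd1, against 4.46% of all probe sets, and 2 passed towards urothelium against 2.88%.

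**Figure D3:**
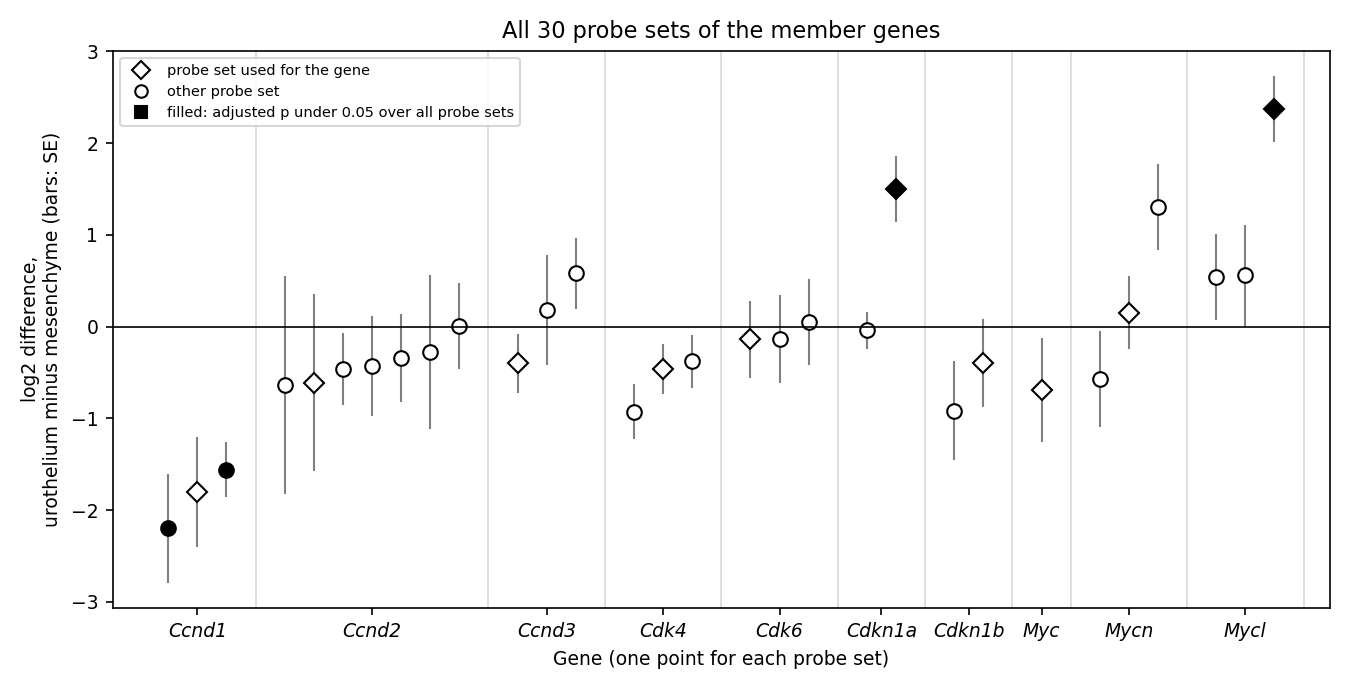
Log2 difference (urothelium minus mesenchyme) and its SE for each of the 30 probe sets, grouped by gene; diamonds mark the probe set used for the gene and filled symbols passed over all probe sets. All 3 probe sets of Ccnd1 lie at or below −1.56, while those of Ccnd3 and Mycn lie on either side of 0.

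Ccnd2 encodes cyclin D2. It had signals of 3981, 19885 and 16223 in mesenchyme and 1242, 9870.5 and 28977 in urothelium. The group means were both 13363, and the arrays of the compartments were interleaved over a 23.3-fold range. Its difference was −0.61 ± 0.95 (adjusted p = 0.771), with an interval from −2.71 to 1.49 that spans large changes either way. Within compartments its log2 signals had an SD of 1.84, at percentile 99.9 of all genes, whose median was 0.45. Without urothelium 5 the sign turned (0.63), and without urothelium 8 the difference was −1.61. Of its 7 probe sets, 4 had their lowest signals of both compartments on mesenchyme 1 and urothelium 5. The widest of these ran from 471 on urothelium 5 and 1549 on mesenchyme 1 to 22743 on urothelium 8. A further bright probe set varied far less, with 10037, 13267 and 7182 in mesenchyme and 4660.5, 6034 and 13026 in urothelium (−0.46 ± 0.39). None of the 7 passed, and their differences lay between −0.64 and 0.01.

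Ccnd3, the gene of cyclin D3, had signals of 3662, 7276 and 5284 in mesenchyme and 3351, 3510.0 and 5143 in urothelium. The ranges overlapped, and the difference of −0.40 ± 0.32 did not pass (adjusted p = 0.513; interval −1.11 to 0.30). It passed with array weights (−0.68), and was −0.16 without mesenchyme 2 and −0.65 without mesenchyme 1. Its 2 dim probe sets, at 23.5 to 329, differed by 0.18 ± 0.60 and 0.58 ± 0.39, the opposite sign, and did not pass. The mean of its probe sets was 0.12.

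The D cyclin partners are CDK4 and CDK6. Cdk4 had signals of 32247, 26413 and 26496 in mesenchyme and 24486, 16361 and 21590.1 in urothelium. Every mesenchyme array was above every urothelium array, but the difference of −0.46 ± 0.26 (1.38-fold) did not pass (adjusted p = 0.318; interval −1.03 to 0.11). It passed with array weights (−0.57). A further probe set of Cdk4 also did not overlap, with 16954 to 27784 in mesenchyme and 8279.9 to 13080.3 in urothelium (−0.93 ± 0.30, adjusted p = 0.0996). The third had overlapping signals (−0.38 ± 0.29). Relative to the median gene the value for Cdk4 was −0.35. Cdk6 had 2693, 5178 and 6056 in mesenchyme and 2424, 3831 and 6779.8 in urothelium, with full overlap. Its difference was −0.14 ± 0.42 (adjusted p = 0.891), with an interval from −1.06 to 0.78, and its sign turned with arrays centred on their medians (0.05) and without mesenchyme 4 (0.09) or urothelium 5 (0.21).

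Cdkn1a, the gene of p21 and a target of p53, rose from 407, 285 and 341 in mesenchyme to 838, 1176 and 1162 in urothelium. The lowest urothelium array was above the highest mesenchyme array. Mean signals were 344 ± 60.8 and 1058 ± 191 (SD, n = 3), a difference of 1.50 ± 0.37 or 2.83-fold (adjusted p = 0.0186). The call was lost on leaving out mesenchyme 2 (1.39, adjusted p = 0.0835), mesenchyme 4 (1.50, 0.0652), urothelium 7 (1.42, 0.1) or urothelium 8 (1.43, 0.0638). Without mesenchyme 1 and urothelium 5 together it held (1.77, adjusted p = 0.0108). Its other probe set was at 6.77 to 19.0 on all arrays and did not differ past the test (−0.04 ± 0.20), and the mean of both gave 0.73 (adjusted p = 0.173).

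Cdkn1b, the gene of p27, was dim on both its probe sets. The brighter had 119.5, 88.4 and 257 in mesenchyme and 62.3, 114 and 125 in urothelium, which overlapped (−0.40 ± 0.43, adjusted p = 0.653; interval −1.35 to 0.56). Without mesenchyme 4 the difference was −0.06, and without mesenchyme 2 it was −0.64. The other ran from 1.63 on urothelium 5 to 207 on mesenchyme 2 (−0.92 ± 0.54, adjusted p = 0.443). No detection calls were used, so these low signals are not called absent.

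In the Myc family, Mycl, the gene of L-Myc, showed the largest difference of the 10 members. It had 1645, 648 and 739.7 in mesenchyme and 4998, 4893 and 5039 in urothelium. The urothelium arrays were nearly equal, and all lay above the highest mesenchyme array, mesenchyme 1. Means were 1011 ± 551 and 4977 ± 75.3 (SD, n = 3), and the difference was 2.37 ± 0.36, 5.16-fold (adjusted p = 0.00101; interval 1.57 to 3.17). It passed under each of the 17 alternative settings, from 2.12 without mesenchyme 2 to 2.77 without mesenchyme 1, apart from a smaller value in the mean of its probe sets (1.16, adjusted p = 0.0490). That mean takes in 2 dim probe sets, at 37.1 to 240.3, which differed by 0.56 ± 0.55 and 0.54 ± 0.47 and did not pass.

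Myc, the family's founding member and the gene of c-Myc, was measured by 1 probe set. It had 2275, 2861 and 4357 in mesenchyme and 609, 2846 and 3691 in urothelium. Apart from urothelium 5 the compartments lay in the same range, and the difference of −0.69 ± 0.57 did not pass (adjusted p = 0.533; interval −1.95 to 0.57). Without urothelium 5 it was 0.09. Mycn, the gene of N-Myc, had 3002, 2374 and 4289 in mesenchyme and 4539.9, 1896 and 4832 in urothelium. These overlapped, with a difference of 0.15 ± 0.39 (adjusted p = 0.877; interval −0.72 to 1.01), and the sign turned on leaving out mesenchyme 2 (−0.05), urothelium 5 (−0.04) or urothelium 8 (−0.09) and with array weights (−0.35). Its dimmer probe sets disagreed in sign: one had 93.2 to 205 in mesenchyme and 291 to 582 in urothelium with no overlap (1.30 ± 0.47, adjusted p = 0.155), the other overlapped (−0.57 ± 0.52).

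**Figure D4:**
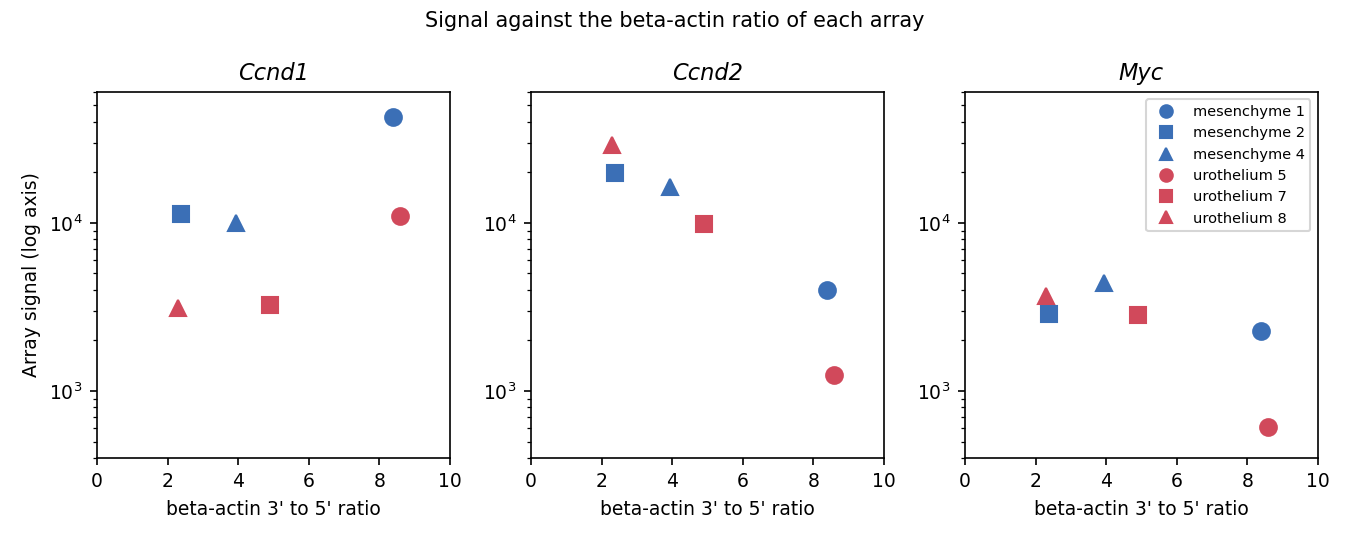
Signal of Ccnd1, Ccnd2 and Myc on each array (log axis) against the 3' to 5' beta-actin signal ratio of that array; colours give the compartment and shapes the array. Mesenchyme 1 and urothelium 5, at ratios of 8.40 and 8.60, have the highest Ccnd1 and the lowest Ccnd2 and Myc signal of their compartments.

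Mesenchyme 1 and urothelium 5 were both the lowest of their compartments for 4 members, Ccnd2, Ccnd3, Cdk6 and Myc, as for 20.9% of all genes. They were both the highest for 2, Ccnd1 and Cdk4, as for 16.9% of all genes. The part of the RNA's state in these patterns was not tested beyond the fits without these arrays and with the ratio as a covariate.

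Whether members of a family differed from each other was examined as the log2 ratio of both genes on each array, for 8 pairs. With 3 arrays against 3, the exact two-sided permutation test cannot go below p = 0.1, so no pair can pass. The ratios of Cdkn1a to Cdkn1b, of Myc to Mycl and of Mycn to Mycl did not overlap between compartments (exact p = 0.1, adjusted p = 0.267 over the pairs). From mesenchyme to urothelium the log2 ratio changed by 1.90 for Cdkn1a to Cdkn1b, by −2.22 for Mycn to Mycl and by −3.06 for Myc to Mycl. The first of these rests on the dim signal of Cdkn1b, and none is a call. The others both contain Mycl, whose own difference was 2.37, so they are not separate from it. The ratio of Ccnd1 to Ccnd2 overlapped and changed by −1.19, with SDs of 2.41 and 3.27 (exact permutation p = 0.5). The remaining 4 pairs overlapped, with exact p of 0.4 to 0.9.

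Promoter sequence is shown for Mycl and Cdkn1a, the members that were higher in urothelium together, and for Cdk4, as a gene with E-boxes of the Myc family. The RefSeq table (GRCm38.p6) held 9 windows for 7 of the 10 members; it gave none for Ccnd1, Ccnd2 and Myc. Each line gives the 250 bases before an annotated start, 5′ to 3′ on the plus strand, and capitals mark motif matches on either strand. The motifs were the GC box GGGCGG and the E-box CACGTG. Further ones were the TATA box TATAAA and the cAMP response element TGACGTCA. E2F sites were searched in the forms TTTGGCGC and TTTCCCGC. The p53 half-site consensus was added after a first reading of the sequences. Cdkn1a has 2 annotated starts.
Mycl, chr4:122995681-122995930: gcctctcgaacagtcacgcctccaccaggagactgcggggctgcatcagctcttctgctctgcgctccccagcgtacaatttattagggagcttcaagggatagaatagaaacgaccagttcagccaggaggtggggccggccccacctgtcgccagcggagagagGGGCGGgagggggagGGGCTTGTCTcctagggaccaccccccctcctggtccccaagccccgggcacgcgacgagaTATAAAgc
Cdkn1a, upstream start, chr17:29090729-29090978: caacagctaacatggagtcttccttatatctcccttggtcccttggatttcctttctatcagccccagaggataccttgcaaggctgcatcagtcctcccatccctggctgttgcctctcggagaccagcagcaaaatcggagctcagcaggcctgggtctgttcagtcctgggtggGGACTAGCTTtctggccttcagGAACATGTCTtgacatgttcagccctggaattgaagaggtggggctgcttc
Cdkn1a, downstream start, chr17:29093519-29093768: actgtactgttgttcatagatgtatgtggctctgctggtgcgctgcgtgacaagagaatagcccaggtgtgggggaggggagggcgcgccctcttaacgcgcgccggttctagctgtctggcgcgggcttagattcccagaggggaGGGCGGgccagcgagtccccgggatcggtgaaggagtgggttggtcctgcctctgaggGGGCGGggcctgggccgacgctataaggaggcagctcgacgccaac
Cdk4, chr10:127063285-127063534: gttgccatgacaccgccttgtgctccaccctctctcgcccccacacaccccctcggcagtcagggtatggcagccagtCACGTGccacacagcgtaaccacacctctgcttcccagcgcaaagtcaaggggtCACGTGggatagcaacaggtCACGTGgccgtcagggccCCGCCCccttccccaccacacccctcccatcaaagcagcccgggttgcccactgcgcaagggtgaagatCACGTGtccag

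The Mycl window held 1 GC box, 1 TATA box that ends 2 bases before the start and 1 p53 half-site. The upstream Cdkn1a window held 2 p53 half-sites and the downstream one 2 GC boxes. In Cdk4 there were 4 E-boxes and 1 GC box. The window of Cdk6, not printed here, also held 1 E-box, with 1 TATA box. Over all 32851 windows of the table, 32.7% held a GC box, 12.4% a TATA box, 7.13% a p53 half-site and 6.02% an E-box. E2F sites of the first form stood in 0.417% of windows and 2 of them in that of Mycn, while the second form (0.895%) and the cAMP response element (1.55%) matched no member window. No marked motif overlapped another in the printed windows. A match is a string of letters, and the arrays do not measure binding.

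By Pearson correlation of log2 signals over the 6 arrays, the genes nearest to Mycl were Hebp2 (r = 0.9980), Plch2 (0.9967) and Fam83h (0.9959), each higher in urothelium by 2.11, 5.05 and 2.85. Those nearest to Cdkn1a were Chchd10 (0.9987), Slc16a7 (0.9979) and Entpd3 (0.9976), higher by 3.75, 3.61 and 4.81. Those nearest to Ccnd1 were Ttc19 (0.9988), Slc36a4 (0.9983) and Gxylt1 (0.9955), which differed by −1.32, −0.57 and −0.44 and did not pass. These points share the compartment difference and the array effects above, so the values describe likeness only.

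Of 160 measured genes in 9 lists of related functions, 9 were higher in urothelium and 10 in mesenchyme, 11.9% together, where 14.7% of all genes passed. The median difference over these genes was −0.16. Of these genes 46 passed with array weights, 30 with the beta-actin ratio as a covariate, 11 in the mean of probe sets, 10 without mesenchyme 2, 11 without mesenchyme 4 and 9 without urothelium 7.

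**Figure D5:**
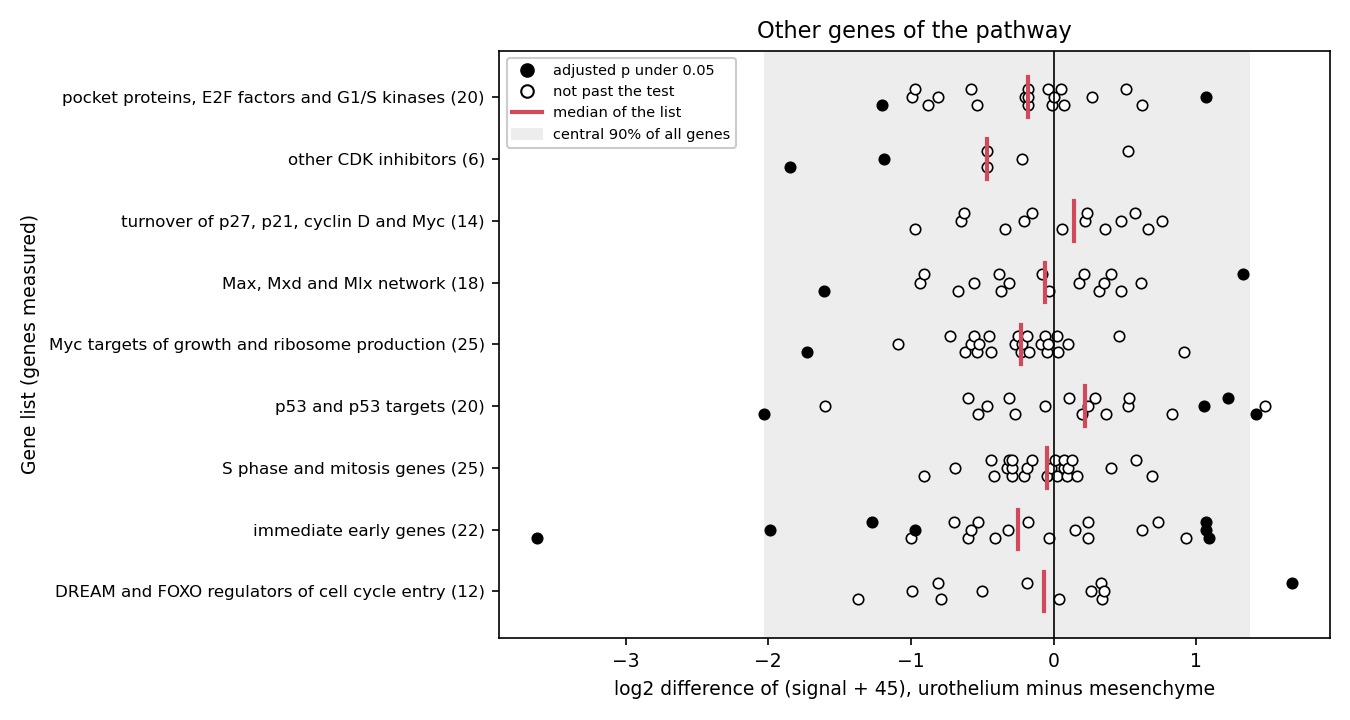
Log2 difference (urothelium minus mesenchyme) of each gene in 9 lists around the members, with the number measured beside the list name; filled points passed at adjusted p under 0.05, red bars are list medians and the grey band is the central 90% of all genes (−2.02 to 1.37). No S phase or mitosis gene passed, and the leftmost point is Ccn2 at −3.62.

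Downstream of the D cyclins, 20 pocket protein, E2F and G1/S kinase genes had a median of −0.18, with 1 higher in each compartment. Rb1, the gene of the retinoblastoma protein, was higher in urothelium (2075 ± 18.8 in mesenchyme and 4556 ± 1516 in urothelium; 1.07 ± 0.30, adjusted p = 0.0336). E2f6, a repressive E2F, was higher in mesenchyme (13594 ± 4569 and 5722 ± 768; −1.20 ± 0.29, adjusted p = 0.0171). Rb1 lost its call in 9 of the 17 alternatives. These were leaving out any array but urothelium 8, and leaving out mesenchyme 1 and urothelium 5 together. Dropping the intensity trend, averaging the Rb1 probe sets or choosing the most variable one removed the call as well. E2f6 lost its call in 3 settings: without urothelium 7, with arrays centred on their medians, and in the mean of probe sets. Of 25 S phase and mitosis genes 0 passed limma's test either way (2 at unadjusted p under 0.05, both lower in urothelium; median −0.05). Top2a, a topoisomerase of replicating cells, had 47155 ± 4886 in mesenchyme and 47840 ± 8919 in urothelium (0.01 ± 0.26). Rrm2, a subunit of ribonucleotide reductase, differed by 0.07 ± 0.30. With array weights 1 gene of this list passed towards urothelium and 2 towards mesenchyme. Towards mesenchyme 2 also passed with the beta-actin ratio as a covariate, 1 with the probe set of largest variance and 1 without urothelium 8.

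Of 6 other CDK inhibitor genes measured, 2 were higher in mesenchyme and 0 in urothelium (0 also at unadjusted p under 0.05 in limma; median −0.47). Cdkn1c, which encodes p57, the third Cip/Kip inhibitor, had 33472, 26987 and 21782 in mesenchyme and 9364, 5392 and 8184 in urothelium (−1.85 ± 0.29, adjusted p = 0.00121). Its call held under all 17 alternatives. Cdkn2c, the gene of the CDK4 and CDK6 inhibitor p18, had 2702 ± 802 and 1138 ± 206 (−1.19 ± 0.33, adjusted p = 0.0334). That call was lost on leaving out any array but mesenchyme 1, after quantile normalization or median centring, and with the probe set of largest variance. Of 14 genes for the turnover of p27, p21, cyclin D and Myc, 0 passed limma's test and 0 had an unadjusted p under 0.05 (median 0.14). With array weights 1 gene of this list passed towards each compartment, and with the beta-actin ratio as a covariate 1 towards urothelium. Without urothelium 5, alone or together with mesenchyme 1, 1 passed towards mesenchyme. The Skp2 cofactor gene Cks1b had 37948 ± 19825 and 57082 ± 9990 (0.76 ± 0.43), and Cks2 differed by 0.47 ± 0.43.

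Of 20 measured p53 pathway genes, which share a regulator with Cdkn1a, 3 were higher in urothelium and 1 in mesenchyme (median 0.22). Zmat3, a p53-induced RNA-binding protein gene, had 1950 ± 235 and 5366 ± 1318 (1.42 ± 0.28, adjusted p = 0.00579). Rrm2b, the p53-induced subunit of ribonucleotide reductase, differed by 1.22 ± 0.33, and Trp53inp1, chosen after its value was seen, by 1.05 ± 0.27. Eda2r, a receptor gene induced by p53, went the other way (344 ± 26.8 and 53.1 ± 29.4; −2.03 ± 0.40, adjusted p = 0.00532). The calls of Rrm2b and Trp53inp1 were lost on leaving out mesenchyme 2, mesenchyme 4, urothelium 5 or urothelium 7. Averaging the probe sets of a gene, or taking its most variable probe set, removed both calls too. Dropping the intensity trend removed that of Trp53inp1. A list of 12 regulators of cell cycle entry held FOXO factors and subunits of the DREAM complex. That complex represses cell cycle genes in resting cells. The list also held other regulators, such as Foxm1, Mybl2 and Men1. Of the 12 genes, 1 was higher in urothelium and 0 in mesenchyme (2 at unadjusted p under 0.05 in limma). This was Foxo3, which encodes a factor that activates Cdkn1b (6136 ± 1673 and 20689 ± 10118; 1.67 ± 0.37, adjusted p = 0.0106). Its call was lost in the mean of probe sets, where 0 genes of the list passed. Lin54, a DREAM subunit gene, differed by 0.33 ± 0.26.

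Around the Myc family, a list of 18 genes held the Max, Mxd and Mlx network and Myc cofactors or binders such as Mycbp2. Its median was −0.06, with 1 gene higher in each compartment. Mxd1, a Max partner that opposes Myc, had 4992, 4308 and 3381 in mesenchyme and 1677, 912 and 1568 in urothelium (−1.61 ± 0.32, adjusted p = 0.00600), a call lost in the mean of probe sets. Mycbp2, a ubiquitin ligase gene named for Myc binding, had 9624 ± 3575 and 23424 ± 5996 (1.33 ± 0.34, adjusted p = 0.0218), a call lost without urothelium 5, without urothelium 7, with averaged probe sets and with the most variable one. Of 25 Myc target genes of growth and ribosome production, 1 was higher in mesenchyme and 0 in urothelium (1 at unadjusted p under 0.05 in limma; median −0.23). The nucleolar protein genes Npm1 and Ncl differed by −0.04 ± 0.26 and −0.17 ± 0.29. The gene that passed was Srm, for spermidine synthase, named after its value was seen (7067 ± 1910 and 2128 ± 801; −1.73 ± 0.34, adjusted p = 0.00461). With array weights 7 of these targets were higher in mesenchyme and 1 in urothelium.

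Immediate early genes, which respond within minutes to growth factors and to handling of tissue, and which include Myc by the same definition, went both ways: of 22 measured, 3 were higher in urothelium and 4 in mesenchyme (median −0.25). Ccn2, the gene of connective tissue growth factor, had 6307 ± 2327 and 452 ± 72.7 (−3.62 ± 0.34, adjusted p = 3.75e-05). Its relative Ccn1 differed by −1.99 ± 0.31 and the AP-1 gene Fosb by −1.27 ± 0.34. Of the genes named after their values were seen, the phosphatase gene Dusp1 (−0.97) was higher in mesenchyme, and Zfp36 (1.09), Fosl2 (1.07) and Klf6 (1.07) were higher in urothelium. The calls of Fosb, Dusp1, Zfp36, Fosl2 and Klf6 were each lost on leaving out any of at least 4 arrays, and Fosl2 had the opposite sign on its probe set of largest variance. The call of Ccn2 held under all 17 alternatives, and that of Ccn1 was lost in the mean of probe sets. The part of dissection in these values was not tested.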

How the data were processed

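The authors deposited 1 linear intensity per probe set and array. Per the submitters' processing notes they came from GCOS; algorithm, settings and genome build: not given in the sources used here. Every array had a 2% trimmed mean of 1500.0, so the arrays were taken as scaled. Signals ran from 0.09 to 156866. Of 45101 probe sets, 64 controls were left out; 34945 had a single symbol in the platform annotation, 932 several and 9160 none, and 34741 of the single-symbol probe sets matched a RefSeq table by Entrez identifier. Each of 18193 genes was represented by its probe set of highest mean log2(signal + 45), 45 being the 25th percentile of all values.

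The fit used limma 3.58.1 in R 4.3.3 (lmFit with compartment as factor, eBayes with an intensity trend) on all 6 arrays, with Benjamini-Hochberg adjustment over all genes; a further fit took all 45037 probe sets. Exact permutation tests used scipy 1.17.1. The fit was tested on simulated data. The members and gene lists were chosen with earlier results of these data known. Named genes were all members, from each list up to 3 genes past the test with the largest difference (or the 2 brightest where fewer than 2 passed), and the 3 genes nearest to each of the 3 members that differed most. Of the list genes, Trp53, Bax and Ccnb1 were not analysed here. Replicate numbers do not overlap between compartments and the labels state no pairing, so the fits paired no arrays. Whether a mesenchyme and a urothelium array share a bladder is not known. No batch or date was given. The number of arrays limits the precision.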

Additional observations from a re-analysis of the deposited data

How the results depend on the processing

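Mycl kept its direction and its call under all 17 alternatives to the gene-level fit, and Cdkn1b, never past the test, kept its direction in the 16 that measured it (the filter on dim genes removed it). Ccnd1 passed with array weights (−1.63), averaged probe sets (−1.85), the most variable probe set (−2.20), a beta-actin covariate (−1.89) and mesenchyme 1 and urothelium 5 both left out (−1.72); leaving out each array gave −2.39 to −1.13. Cdkn1a was not past the test in the mean of probe sets (0.73). Leaving out each array gave 1.39 to 1.65 for Cdkn1a, and its call was lost without mesenchyme 2, mesenchyme 4, urothelium 7 or urothelium 8. With array weights Ccnd3 (−0.68) and Cdk4 (−0.57) passed and Mycn turned (−0.35). The sign also turned for Ccnd3 with averaged probe sets (0.12) and the most variable probe set (0.18), for Cdk6 with median centring (0.05) and for Mycn without both named arrays (−0.07). Leaving out each array gave −1.61 to 0.63 for Ccnd2, −0.65 to −0.16 for Ccnd3, −0.64 to −0.06 for Cdkn1b, −0.52 to 0.21 for Cdk6, −1.17 to 0.09 for Myc and −0.09 to 0.58 for Mycn. The count of members higher in urothelium was 1 with averaged probe sets and 1 to 2 on leaving out arrays. In mesenchyme it was 3 with array weights, 1 with averaged probe sets, the most variable probe set, the covariate or both arrays left out, and 0 to 1 on leaving out arrays. Over all genes array weights gave 2055 calls in urothelium and 2996 in mesenchyme. The filter on dim genes, with fewer genes tested, gave 998 in mesenchyme, and leaving out arrays gave 660 to 1059 in urothelium. The pathway genes past the test numbered 46, 30 and 11 with array weights, the covariate and the mean of probe sets, and 9 to 18 on leaving out arrays. The cause of these changes was not tested. The fit of probe sets without both arrays was added after the data were seen; it gave 2 calls in each direction, those towards mesenchyme on a different pair of Ccnd1 probe sets that shares 1 with the fit of all arrays. Low signals limit Cdkn1b and the dim probe sets of the other members.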
